A study of Mus musculus with 10 samples.

Results

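The insulin-like growth factor (IGF) and insulin signalling genes Igf1, Igf1r, Igf2r, Insr, Irs1, Irs2, Igfbp2, Igfbp3, Igfbp4 and Igfbp5 were examined in 3T3-L1 preadipocytes after knockdown of the histone demethylase LSD1, which is encoded by Kdm1a. The genes were chosen with earlier results of these data known. Every probe set whose platform annotation named 1 of these genes alone was taken, whatever its values, which gave 27 probe sets of the 45037 on the array, for 10 of 18193 named genes. A further 1 probe set that lists both Airn and Igf2r was left out. 3T3-L1 is a single mouse line of fibroblast-like cells that can be turned into adipocytes in culture, and the labels give these samples as undifferentiated. Cells received 60 nM of an siRNA to LSD1 (siLsd1) or 60 nM of a scrambled siRNA (siC), in DMEM with calf serum that was not changed afterwards. RNA was taken 24 h after transfection from 2 siLsd1 and 2 siC cultures of passage 19, and 48 h after transfection from 3 siLsd1 and 3 siC cultures of passage 21, with 1 array each. Time and passage therefore cannot be told apart. The labels call the replicates biological without saying whether cultures were set up on separate days, so p-values here speak of the spread among these cultures, which may be technical.

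Insulin and the IGFs bind related receptors at the cell surface, Insr and Igf1r, whose tyrosine kinase activity is passed on by the adaptors Irs1 and Irs2 to the PI3-kinase and AKT pathway. Igf2r has no kinase: it takes up Igf2 and carries enzymes to lysosomes. The Igfbp proteins are secreted, hold IGFs outside the cell and in that way limit or prolong their action. In 3T3-L1 preadipocytes, insulin or IGF1 is part of the mixture used to start adipocyte differentiation.

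The promoters of Igf1 and Igfbp4, the genes called lower at 48 h, and of Igfbp3, whose brightest probe set varied most over the arrays among the brightest probe sets of these genes, are shown from 250 bases before to 50 bases after the annotated start. They are RefSeq sequences of GRCm38.p6 in the direction of the gene, at chr10:87860861-87861160 (+) for Igf1, chr11:99040994-99041293 (+) for Igfbp4 and chr11:7213874-7214173 (-) for Igfbp3. Capitals mark matches to the motifs described below them.
Igf1: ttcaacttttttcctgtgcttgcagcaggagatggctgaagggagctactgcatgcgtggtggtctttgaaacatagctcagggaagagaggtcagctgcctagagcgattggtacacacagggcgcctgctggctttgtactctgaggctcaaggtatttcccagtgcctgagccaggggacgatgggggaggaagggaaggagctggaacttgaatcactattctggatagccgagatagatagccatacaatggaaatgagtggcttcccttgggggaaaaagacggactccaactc
Igfbp4: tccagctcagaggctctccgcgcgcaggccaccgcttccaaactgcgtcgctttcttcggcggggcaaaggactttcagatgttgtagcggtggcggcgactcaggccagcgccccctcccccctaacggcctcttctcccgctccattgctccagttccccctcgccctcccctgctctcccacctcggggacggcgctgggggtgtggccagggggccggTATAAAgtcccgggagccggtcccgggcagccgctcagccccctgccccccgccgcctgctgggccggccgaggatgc
Igfbp3: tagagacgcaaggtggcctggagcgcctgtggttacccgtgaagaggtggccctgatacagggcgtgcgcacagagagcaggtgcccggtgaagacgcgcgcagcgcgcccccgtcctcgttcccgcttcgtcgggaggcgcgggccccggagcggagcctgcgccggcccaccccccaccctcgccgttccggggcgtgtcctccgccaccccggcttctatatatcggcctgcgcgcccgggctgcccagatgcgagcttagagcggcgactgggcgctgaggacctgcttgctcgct
Motifs were searched on both strands. The TATA box core TATAAA was found in the promoter of Igfbp4, 28 bases before the start, and in none of the other 8 genes with a promoter entry, against 13.6% of 32851 promoters. The Sp1 word GGGCGG was found in 5 of 9 genes (Igfbp2, Irs1, Igf1r, Irs2 and Igf2r), against 35.7% of all promoters. The E-box CACGTG was found in 4 of 9 genes (Igfbp2, Irs1, Irs2 and Igf2r), against 7.15% of all. The forkhead word GTAAACA was found in 0 of 9 genes, against 3.65% of all. A match is a description of these letters and not of a bound site, and the windows of Igf1 and Igfbp3 held no match to any of them. The windows were 52.3% GC for Igf1, 71.3% for Igfbp4 and 71.7% for Igfbp3, where the median promoter had 52.7%.

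The knockdown was first checked on Kdm1a itself. Its probe set 1426761_at read 327 and 332 intensity units in siLsd1 cells at 24 h, against 604 and 569 in siC cells. At 48 h it read 448, 449 and 338 in siLsd1 cells, against 656, 643 and 623 in siC cells. The groups did not overlap at either time, and the change was -0.83 ± 0.14 at 24 h (log2 ± SE, limma with Benjamini-Hochberg adjustment over all probe sets tested, adjusted p = 0.0201) and -0.65 ± 0.11 at 48 h (adjusted p = 0.016). The second probe set, 1426762_s_at, differed by -0.69 ± 0.17 at 24 h (limma, adjusted p = 0.0765) and by -0.55 ± 0.14 at 48 h (adjusted p = 0.0488). Its 48 h change was -0.35 (adjusted p = 0.00603) without siLsd1 48 h replicate 3. Of the preadipocyte or fibroblast markers, 9 of 10 had a probe set and all 9 lay above the dim limit. Cd34 and Fap did so narrowly, with means over all arrays of 15.1 and 16.8 units, below the median of every array. Lying above the limit therefore does not show that a marker was expressed. The summed intensity of the 9 markers was 28506 to 28849 in siLsd1 cells and 32431 to 33959 in siC cells at 24 h. At 48 h it was 23210 to 32000.4 in siLsd1 cells and 34339 to 36096 in siC cells. Col1a2 was the brightest of the 9. Its means were 13988 in siLsd1 and 13703 in siC cells at 24 h, and 12617 and 13064 at 48 h. The lowest sum was that of siLsd1 48 h replicate 3, where Pdgfra read 1865 units against 5757 and 5909 in replicates 1 and 2. The mature adipocyte markers with a probe set, 5 of 7, summed to no more than 167 on any array, with 3 of them above the limit. Macrophage markers (4 of 6 above the limit) summed to at most 549, endothelial markers (3 of 4) to at most 151 and skeletal muscle markers (3 of 4) to at most 355. The part of the lower preadipocyte sum in the results below was not tested.

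Replicate 3 of the siLsd1 48 h group stood apart from the other two. Log2 differences between 2 arrays of a group had an SD of 0.0952 to 0.24 over 10949 bright probe sets in all pairs without this array, and of 0.46 and 0.454 for this array against replicates 1 and 2. Among the 24 tested probe sets of the IGF and insulin genes, 11 lay more than 0.5 log2 units outside the range of replicates 1 and 2 in this replicate. In 12 of the 24 its value was nearer to the siLsd1 24 h mean than to the mean of replicates 1 and 2. Neither count is given here for all tested probe sets, so they describe this array and nothing particular to these genes. Against the mean of replicates 1 and 2 it was 1.85 and 1.95 log2 units higher for the probe sets of Igfbp3, 1.52 lower for an Igf2r probe set (-1.52) and 1.16 lower for an Igf1r probe set (-1.16). For Igf1 the differences were -2.36 (1434413_at), -0.80 (1437401_at), -0.52 (1452014_a_at) and 0.22 (1419519_at). For Igfbp4, the 5 tested probe sets lay between -0.19 and 0.09. Results are given with this array, as the labels place it, and again without it.

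**Figure D1:**
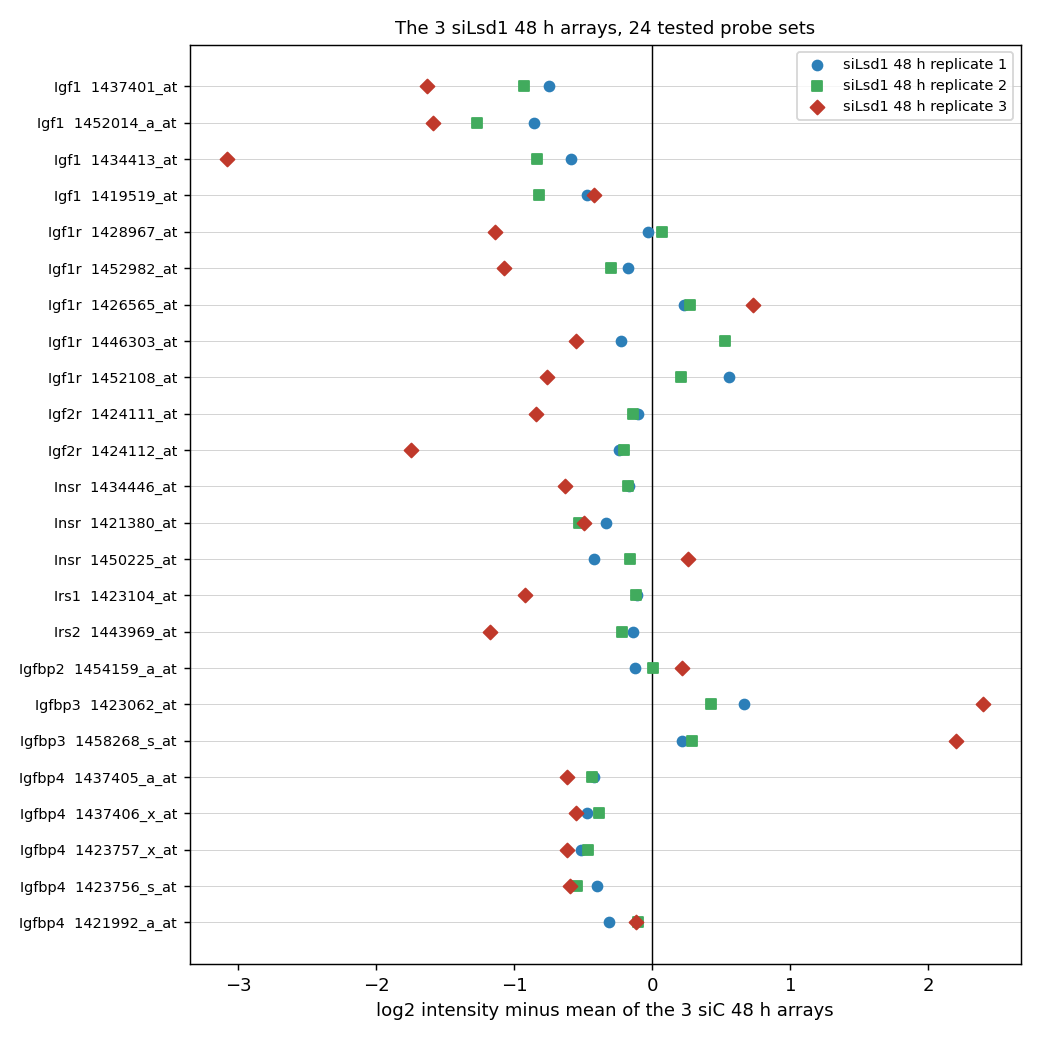
The 3 siLsd1 48 h arrays, each shown as log2 intensity minus the mean of the 3 siC 48 h arrays, for the 24 tested probe sets (rows). Replicate 3 (diamonds) lies apart from replicates 1 (circles) and 2 (squares) for Igfbp3, Igf2r, Irs1, Irs2 and most probe sets of Igf1 and Igf1r, and beside them for Igfbp4.

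All calls among these genes for the siRNA were of lower levels in siLsd1 cells, in probe sets of Igf1, Igfbp4, Insr and Igf2r. The 25% of probe sets with the lowest mean (up to 13.4 units) were left out as dim, which left 24 of the 27 probe sets and 33777 in all, and a probe set was called at an adjusted p under 0.05. At 24 h, 1 of the 24 was called lower in siLsd1 cells and 0 higher, where 0.941% of all tested probe sets were called lower and 1.07% higher. At 48 h, 6 were called lower and 0 higher, against 2.89% lower and 3.07% higher of all. These 6 belong to 2 genes, Igf1 and Igfbp4. For the mean of both times, 8 probe sets of 4 genes were called lower and 0 higher, against 7.42% lower and 5.71% higher of all. The genes added were Igf2r and Insr. Since the genes were chosen with earlier results of these data known, these shares give a scale and do not test the list. The median log2 change of the 24 probe sets was -0.34 at 24 h and -0.42 at 48 h, where the median of all tested probe sets was -0.01 and -0.03.

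Leaving out siLsd1 48 h replicate 3 gave 2 higher and 9 lower at 24 h (5.47% and 8.51% of all probe sets). It gave 0 higher and 5 lower at 48 h (4.44% and 5.01%) and 2 higher and 11 lower for the mean of both times (8.67% and 11.8%). At 24 h, 0 were called by limma without any one of the other 9 arrays. At 48 h, 0 were called without siC 48 h replicate 1 or 2, and 2 once siC 48 h replicate 3 was left out. Omitting siLsd1 24 h replicate 1 or siLsd1 48 h replicate 2 left 3 calls at that time. Calls over all probe sets moved too: 2013 at 48 h with all arrays, then 400, 262 and 458 on leaving out siC 48 h replicates 1, 2 and 3 in turn. They were 715 when siLsd1 24 h replicate 1 was omitted, and 2078 when siLsd1 48 h replicate 2 was. At 24 h they were 681, and 8 to 507 without one of those 9 arrays. For the mean of both times, 5 were called without siLsd1 24 h replicate 1, with 1202 calls over all probe sets against 4434. The siRNA changes at the 2 times were not called different for any of the 24 probe sets by limma (0% of all were called higher and 0% lower), and 1 of the 24 had an unadjusted p under 0.05, against 5.57% of all. That one was the Insr probe set 1450225_at, with an interaction adjusted p of 0.873.

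**Figure D2:**
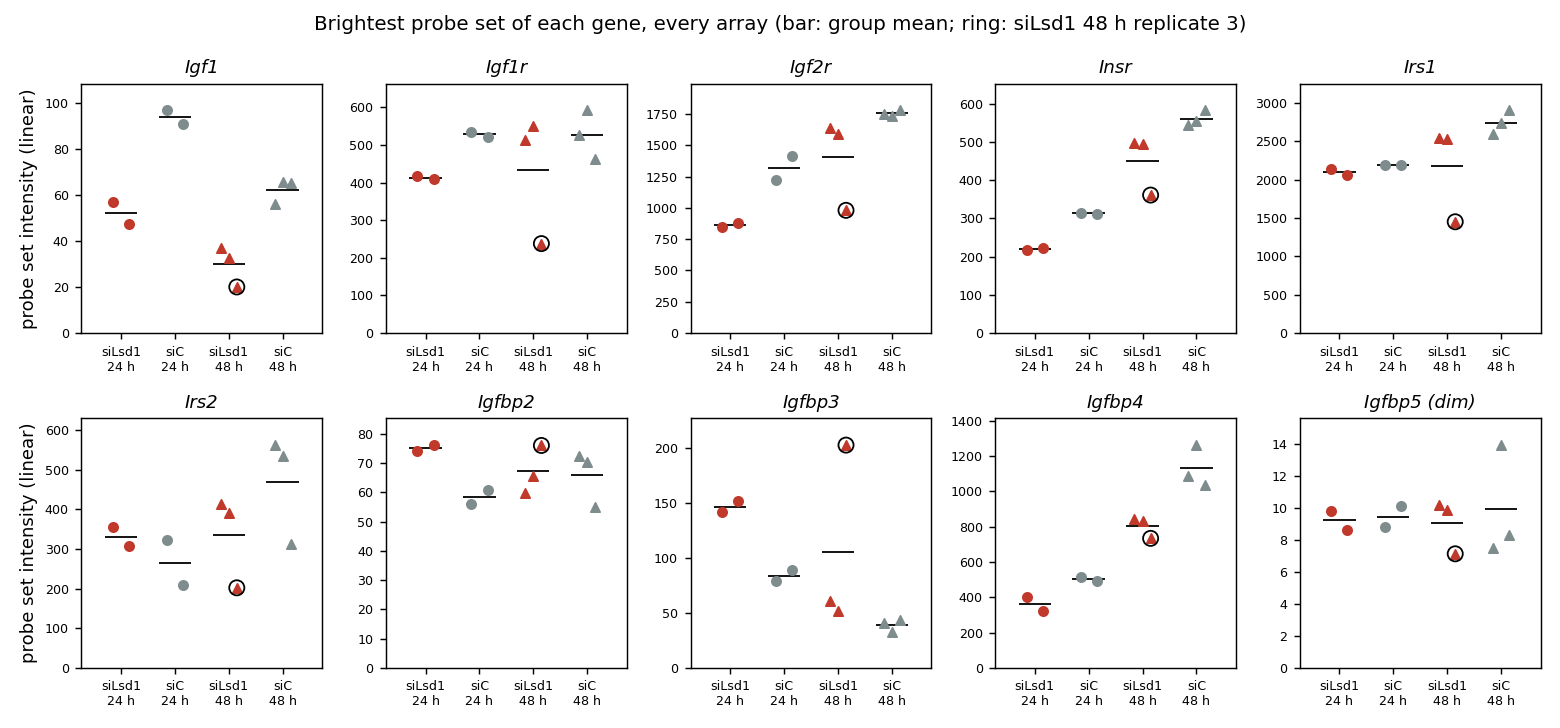
Linear intensity of the brightest probe set of each of the 10 genes on all 10 arrays, with siLsd1 left of siC at each time, bars at the group means and a ring around siLsd1 48 h replicate 3. The siLsd1 arrays lie below the siC arrays of the same time for Igf1, Igf2r, Insr, Irs1 and Igfbp4, and above them for Igfbp3. Such separation was common: at 24 h, 12 of 51 other pathway genes lay all higher and 21 all lower, with 0 called. The share over all probe sets is not given here. Igfbp5 was dim on all arrays and was not tested.

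Igf1, the ligand of Igf1r, was called lower in siLsd1 cells at 48 h in 2 of its 4 probe sets, and the other two had the same sign. The probe set 1437401_at read 57.0 and 47.2 units in siLsd1 cells at 24 h, against 96.8 and 90.8 in siC cells. At 48 h it read 37.0, 32.7 and 20.0 in siLsd1 cells, against 56.3, 65.6 and 65.1 in siC cells. Every siLsd1 array lay below every siC array of its time, and replicate 3 was the lowest. At 48 h the siLsd1 values also lay below the medians of their own arrays over all probe sets (39.2, 38.6 and 36.2 units). The group means were 52.1 ± 6.88 in siLsd1 and 93.8 ± 4.29 in siC cells at 24 h (SD, n = 2 each), and 29.9 ± 8.84 in siLsd1 and 62.3 ± 5.26 in siC cells at 48 h (SD, n = 3 each). The log2 difference was -0.85 ± 0.27 at 24 h, which did not pass the test (limma, adjusted p = 0.153), and -1.10 ± 0.22 at 48 h, a 2.15-fold decrease (adjusted p = 0.0244). For the mean of both times it was -0.98 ± 0.18 (1.97-fold lower, limma adjusted p = 0.00757), and this call held when each of the 10 arrays was left out in turn (adjusted p at most 0.0431). In whole-culture RNA, fewer cells expressing a gene and less of its RNA per cell cannot be told apart.

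The second Igf1 probe set, 1452014_a_at, read 41.9 and 54.7 units in siLsd1 cells against 99.2 and 65.8 in siC cells at 24 h. At 48 h its values were 34.9, 26.2 and 21.1 in siLsd1 cells, against 68.5, 67.4 and 54.6 in siC cells. Again no siLsd1 array reached a siC array of its time. It was 2.36-fold lower at 48 h (-1.24 ± 0.23, limma adjusted p = 0.0196), and it was also called for the mean of both times (adjusted p = 0.0087), which missed the threshold without siLsd1 24 h replicate 1 (adjusted p = 0.0561). The 48 h calls of Igf1 were lost in fits with fewer siC arrays. Without siC 48 h replicate 1, 2 or 3 the adjusted p of 1437401_at was 0.0661, 0.0976 and 0.0795 (limma), with log2 changes of -1.17, -1.06 and -1.07. That of 1452014_a_at was 0.076 without replicate 1 and 0.0851 without replicate 2, and its call held without replicate 3. Calls over all probe sets also fell in these fits, as given above. Without siLsd1 48 h replicate 3, 1437401_at had differences of -0.85 at 24 h (limma, adjusted p = 0.00918) and -0.84 at 48 h (adjusted p = 0.00962), and both times were called. The other Igf1 probe sets, 1434413_at and 1419519_at, were not called for siLsd1 against siC. Their log2 differences were -1.08 ± 0.67 and -1.30 ± 0.44 at 24 h, and -1.5 ± 0.54 and -0.57 ± 0.36 at 48 h, in that order. For 1434413_at, siLsd1 48 h replicate 3 read 5.37 units, against 30.2 and 25.4 in replicates 1 and 2.

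Of the receptors, the brightest probe set of Insr, the insulin receptor, was lower in siLsd1 cells over both times. It read 218 and 224 units in siLsd1 cells at 24 h, against 315 and 312 in siC cells, and at 48 h 498, 496 and 361 in siLsd1 cells, against 544, 555 and 583 in siC cells. The arrays of the 2 siRNAs did not overlap at either time, by a narrow margin at 48 h apart from replicate 3. Neither time passed the test alone (-0.51 ± 0.15 at 24 h, limma adjusted p = 0.137, and -0.33 ± 0.13 at 48 h, adjusted p = 0.141), while the mean of both times was -0.42 ± 0.10 (1.33-fold lower, adjusted p = 0.0232). That call was lost, at adjusted p of 0.0541 to 0.0991, without siC 24 h replicate 1 or 2, siLsd1 24 h replicate 1 or 2, or siC 48 h replicate 2 or 3. Without siLsd1 48 h replicate 3 the difference was -0.51 ± 0.08 at 24 h (adjusted p = 0.00175) and -0.17 at 48 h (adjusted p = 0.165). The 2 other Insr probe sets, 1421380_at and 1450225_at, had the opposite sign at 24 h (0.22 and 0.81) and were not called. Both were far dimmer, with means over all arrays of 45.5 and 23.0 units, against 411 for 1434446_at.

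Igf2r, too, was lower in siLsd1 cells for the mean of both times. Its probe set 1424111_at read 847 and 876 units in siLsd1 cells at 24 h, against 1220.2 and 1413 in siC cells, and 1636, 1593 and 980.3 in siLsd1 cells at 48 h, against 1752, 1734 and 1779 in siC cells. Both times showed siLsd1 arrays below siC arrays with no overlap, and replicate 3 lay near the siLsd1 24 h arrays. The difference was -0.61 ± 0.20 at 24 h (limma, adjusted p = 0.174), -0.36 ± 0.17 at 48 h (adjusted p = 0.209) and -0.48 ± 0.13 for the mean of both (1.40-fold lower, adjusted p = 0.0376). The mean was no longer called (adjusted p 0.0699 to 0.134) without any one of the siC arrays of either time or of the siLsd1 24 h arrays. Without siLsd1 48 h replicate 3 the 24 h difference was -0.61 ± 0.07 (limma, adjusted p = 0.000414) and the 48 h difference -0.12 (adjusted p = 0.315). The other Igf2r probe set, 1424112_at, had the same sign and was not called (-0.33 at 24 h and -0.73 at 48 h).

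Igf1r, the IGF1 receptor, gave no call for the siRNA, and its probe sets differed in sign. The probe set 1428967_at read 417 and 408 units in siLsd1 cells at 24 h, against 535 and 522 in siC cells. At 48 h it read 512, 549.7 and 238 in siLsd1 cells, against 527, 592 and 462 in siC cells, where replicates 1 and 2 overlapped with the siC arrays and replicate 3 lay below all others. Its log2 differences were -0.36 at 24 h (limma, adjusted p = 0.658) and -0.37 at 48 h (adjusted p = 0.419). The probe set 1452982_at had differences of -0.48 ± 0.25 at 24 h and -0.52 ± 0.20 at 48 h (limma, adjusted p = 0.386 and 0.151), and without siLsd1 48 h replicate 3 its 24 h difference was called (-0.48, adjusted p = 0.0172). The third, 1426565_at, had 186, 192 and 263 units in siLsd1 cells at 48 h, against 171, 151 and 156 in siC cells, and so was higher on each siLsd1 array there (0.41 ± 0.14, limma adjusted p = 0.104) and not at 24 h (-0.01). The dimmer ones, 1446303_at and 1452108_at, had differences between -0.08 and 0.10 at both times.

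The adaptors Irs1 and Irs2, which couple both receptors to PI3-kinase, were not called for the siRNA. Irs1 (1423104_at) read 2134 and 2065 units in siLsd1 cells at 24 h against 2188 and 2190.2 in siC cells. At 48 h it read 2541, 2533 and 1451 in siLsd1 cells, against 2591, 2739.6 and 2904 in siC cells. The arrays did not overlap, but apart from replicate 3 the gaps were small. Its 48 h difference of -0.38 ± 0.18 (limma, adjusted p = 0.216) came with replicate 3 far below the other two, and was -0.11 without it (adjusted p = 0.253). Irs2 (1443969_at) read 354 and 308 units in siLsd1 cells at 24 h against 323 and 208 in siC cells. At 48 h it read 413, 390.0 and 202 in siLsd1 cells, against 562, 534 and 313 in siC cells. These ranges overlapped at both times (0.35 at 24 h, limma adjusted p = 0.717, and -0.51 at 48 h, adjusted p = 0.33).

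Igfbp4, a secreted protein that holds IGFs away from their receptor, was lower in siLsd1 cells at 48 h in all 5 tested probe sets and called in 4 of them. The brightest, 1437405_a_at, read 403 and 323 units in siLsd1 cells at 24 h, against 516 and 489 in siC cells, and 841, 830.3 and 734 in siLsd1 cells at 48 h, against 1089, 1263 and 1038 in siC cells. No siLsd1 array reached a siC array of its time, and here replicate 3 lay close to the other two. Its difference was -0.48 ± 0.14 at 24 h (limma, adjusted p = 0.118) and -0.49 ± 0.11 at 48 h (1.41-fold lower, adjusted p = 0.0355). The probe set 1423757_x_at read 225 and 184 units in siLsd1 cells at 24 h, against 323 and 322 in siC cells, and 468, 484 and 435 in siLsd1 cells at 48 h, against 714, 696 and 601 in siC cells. It was called at both times, 1.59-fold lower at 24 h (-0.67 ± 0.13, limma adjusted p = 0.0371) and 1.45-fold lower at 48 h (-0.53 ± 0.11, adjusted p = 0.0254). At 48 h the probe sets 1437406_x_at (-0.47, limma adjusted p = 0.0496) and 1423756_s_at (-0.51 ± 0.12, adjusted p = 0.0344) were also called. The fifth, 1421992_a_at, was not (-0.26 at 24 h and -0.18 at 48 h). Probe sets of 1 gene read the same RNA, so they are not independent of each other, and the suffix x marks probes that can pair with other transcripts.

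For the mean of both times these 4 Igfbp4 probe sets were called (limma, adjusted p 0.00271 to 0.00822), and each stayed called when any one of the 10 arrays was left out (adjusted p at most 0.0452). Calls at single times held in fewer of these fits. The 24 h call of 1423757_x_at held in 1 of 10 such fits, that without siLsd1 48 h replicate 3 (adjusted p = 0.00338), and reached adjusted p of 0.0506 to 0.254 without each of the others. At 48 h, its call was lost without siC 48 h replicate 1 (adjusted p = 0.0886) or 2 (adjusted p = 0.111). That of 1437406_x_at was lost without any one array (adjusted p 0.0508 to 0.173). That of 1437405_a_at was lost, at adjusted p up to 0.138, without siC 24 h replicate 1 or 2, siLsd1 24 h replicate 1, any siC 48 h replicate or siLsd1 48 h replicate 2. That of 1423756_s_at was lost, at adjusted p up to 0.137, without either siLsd1 24 h replicate, any siC 48 h replicate or siLsd1 48 h replicate 2.

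**Figure D3:**
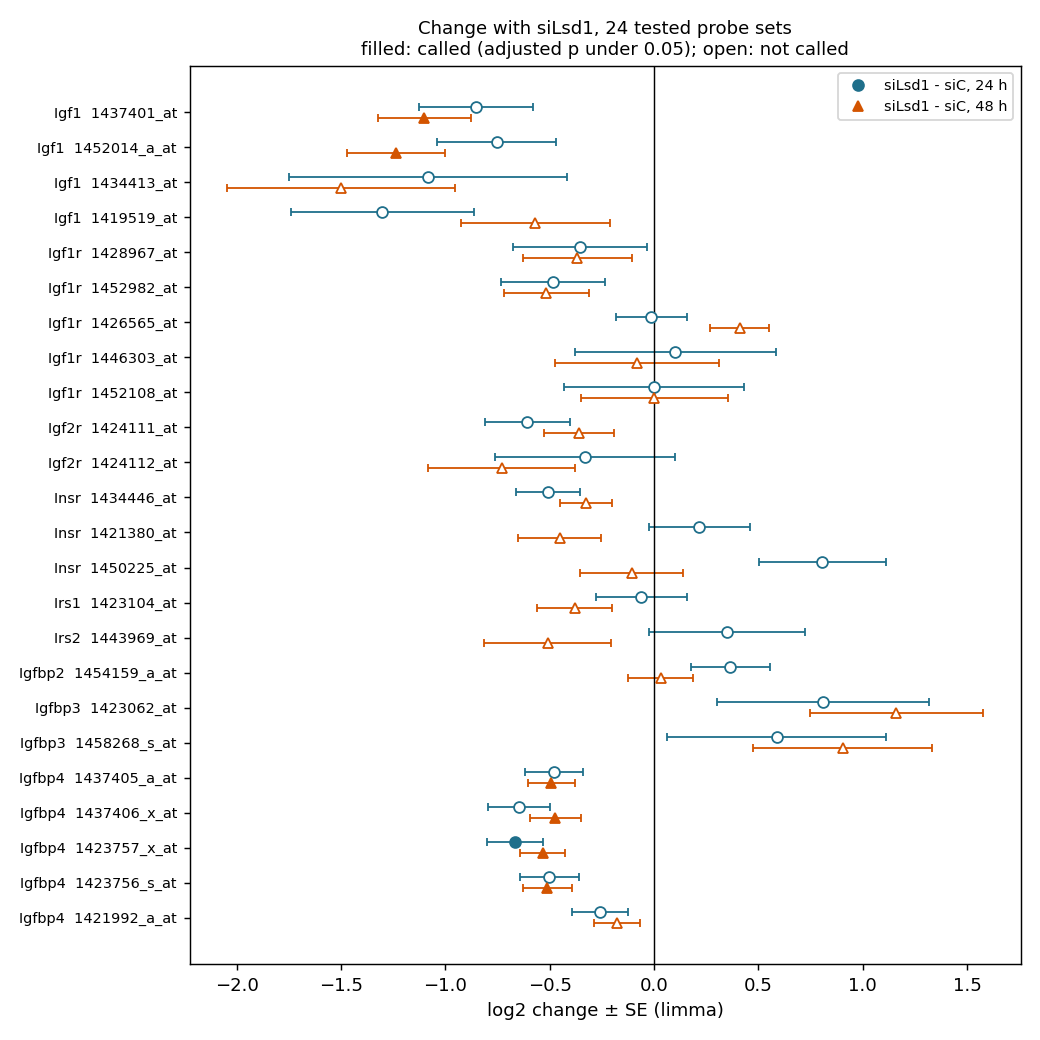
Log2 change in siLsd1 against siC cells with its SE from limma for the 24 tested probe sets, at 24 h (circles) and 48 h (triangles), filled where the adjusted p was under 0.05. The filled points are 6 probe sets of Igf1 and Igfbp4 at 48 h and 1 of Igfbp4 at 24 h, all below 0, and both Igfbp3 probe sets lie above 0 with wide errors.

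Igfbp3, the main IGF carrier in blood and a secreted product of many fibroblasts, stood higher in siLsd1 cells on every array but did not pass the test. Its probe set 1423062_at read 141 and 152 units in siLsd1 cells at 24 h, against 78.7 and 88.5 in siC cells. At 48 h it read 61.0, 51.8 and 202 in siLsd1 cells, against 40.4, 32.4 and 43.6 in siC cells. Replicates 1 and 2 at 48 h lay just above the siC arrays, and replicate 3 lay above every other array of the study. The difference was 0.81 ± 0.51 at 24 h (limma, adjusted p = 0.489), 1.16 ± 0.41 at 48 h (adjusted p = 0.117) and 0.99 for the mean of both (adjusted p = 0.0753). Without siLsd1 48 h replicate 3 the 24 h difference passed (0.81 ± 0.18, limma adjusted p = 0.0145), the 48 h difference was 0.54 ± 0.17 (adjusted p = 0.0717) and the mean was called (0.68, adjusted p = 0.0031). The second probe set, 1458268_s_at, read 110 and 107 units in siLsd1 cells at 24 h against 72.2 and 72.2 in siC cells, and 40.9, 43.1 and 162 in siLsd1 cells at 48 h against 38.3, 31.1 and 36.7 in siC cells. It was likewise called at 24 h without that array alone (0.59, adjusted p = 0.0439), and differed by 0.25 at 48 h (adjusted p = 0.374).

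Taking each gene by its brightest probe set, Igfbp3 had the largest SD over the 10 arrays among the 9 genes tested, 0.90 on the log2 scale, against 0.18 for Igfbp2 and 0.69 for Igf1. The dimmer Igf1 probe set 1434413_at had a larger SD, 1.11. The genes whose deviations from their own mean were nearest to those of Igfbp3, among 15043 genes, were Gadd45a (mean absolute difference 0.15 log2 units over 10 arrays), Slc25a33 (0.18) and Steap1 (0.18). Gadd45a, a stress-induced gene linked to growth arrest, read 2717 and 2615 units in siLsd1 cells at 24 h against 1705 and 1654 in siC cells, and 1169, 1055 and 3195 in siLsd1 cells at 48 h against 655, 713 and 679 in siC cells. It shares with Igfbp3 the high value of siLsd1 48 h replicate 3 and the lower siC values at 48 h. Likeness here was measured over arrays that include that replicate.

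Igfbp2 (1454159_a_at) read 74.1 and 76.2 units in siLsd1 cells at 24 h, against 55.9 and 60.9 in siC cells, and 59.9, 65.6 and 76.0 in siLsd1 cells at 48 h, against 72.4, 70.2 and 55.0 in siC cells. It was higher on both siLsd1 arrays at 24 h and overlapped at 48 h, with log2 differences of 0.36 ± 0.19 (limma, adjusted p = 0.389) and 0.03. Both probe sets of Igfbp5 were dim, with means over all arrays of 9.44 and 6.64 units, as was 1 of Igfbp4 (7.28 units), and these 3 were not tested. Igfbp2 and Igfbp5 are neighbours on chromosome 1.

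Igfbp4 and 1 of the 3 Insr probe sets also differed between the times, which differ in passage as well. In siC cells, 6 of the 24 probe sets were called higher at 48 h than at 24 h and 2 lower, against 10.4% higher and 8.62% lower of all. In siLsd1 cells 6 were called higher and 0 lower, against 4.81% higher and 4.18% lower of all. All 5 tested Igfbp4 probe sets and Insr 1434446_at were higher at 48 h under both siRNAs. For Igfbp4 1437405_a_at the mean was 802 ± 59.1 units at 48 h and 363 ± 56.4 at 24 h in siLsd1 cells (2.22-fold, limma adjusted p = 0.00121), and 1130.0 ± 118 at 48 h and 502 ± 18.7 at 24 h in siC cells (2.24-fold, adjusted p = 0.000317), with n = 3 at 48 h and n = 2 at 24 h. For Insr 1434446_at it was 452 ± 78.3 at 48 h and 221 ± 4.38 at 24 h in siLsd1 cells (2.03-fold, limma adjusted p = 0.00298), and 561 ± 20.2 at 48 h and 314 ± 1.5 at 24 h in siC cells (1.79-fold, adjusted p = 0.00295). For both of these probe sets, no 24 h array reached a 48 h array under the same siRNA. The other Insr probe sets, the far dimmer 1421380_at and 1450225_at, had the opposite sign in siLsd1 cells and were not called (-0.55, limma adjusted p = 0.162, and -0.58, adjusted p = 0.238), with every 48 h array below both 24 h arrays. In siC cells their differences were 0.12 and 0.33, also not called. The calls of Insr 1434446_at and of the 4 brighter Igfbp4 probe sets held when any one array was left out. Those of 1421992_a_at did not: in siLsd1 cells the adjusted p was 0.0602 without siLsd1 24 h replicate 1 and 0.0774 without replicate 2, and in siC cells it was 0.0542 without siC 24 h replicate 2.

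The probe sets called lower at 48 h in siC cells were Igf1r 1426565_at, at 159 ± 10.4 units at 48 h and 284 ± 8.39 at 24 h (1.78-fold, limma adjusted p = 0.00504), and Igf1 1419519_at (2.67-fold, adjusted p = 0.0324). The Igf1r call held without any one array (adjusted p at most 0.0499). The Igf1 call was lost without siC 24 h replicate 1 or 2 or siC 48 h replicate 1 or 3 (adjusted p 0.074 to 0.198). The brighter Igf1 probe sets had the same sign and were not called in siC cells (-0.59 for 1437401_at, limma adjusted p = 0.13). Igfbp3 1423062_at had lower values at 48 h in siC cells (-1.12, limma adjusted p = 0.126), a difference that was called without siLsd1 48 h replicate 3 (adjusted p = 0.000546). Without that array 10 probe sets were called higher and 6 lower in siC cells (17.2% and 13.9% of all), and 11 higher and 4 lower in siLsd1 cells (15.4% and 11.1%). The siC 48 h arrays enter both the time comparison in siC cells and the siRNA comparison at 48 h.

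**Figure D4:**
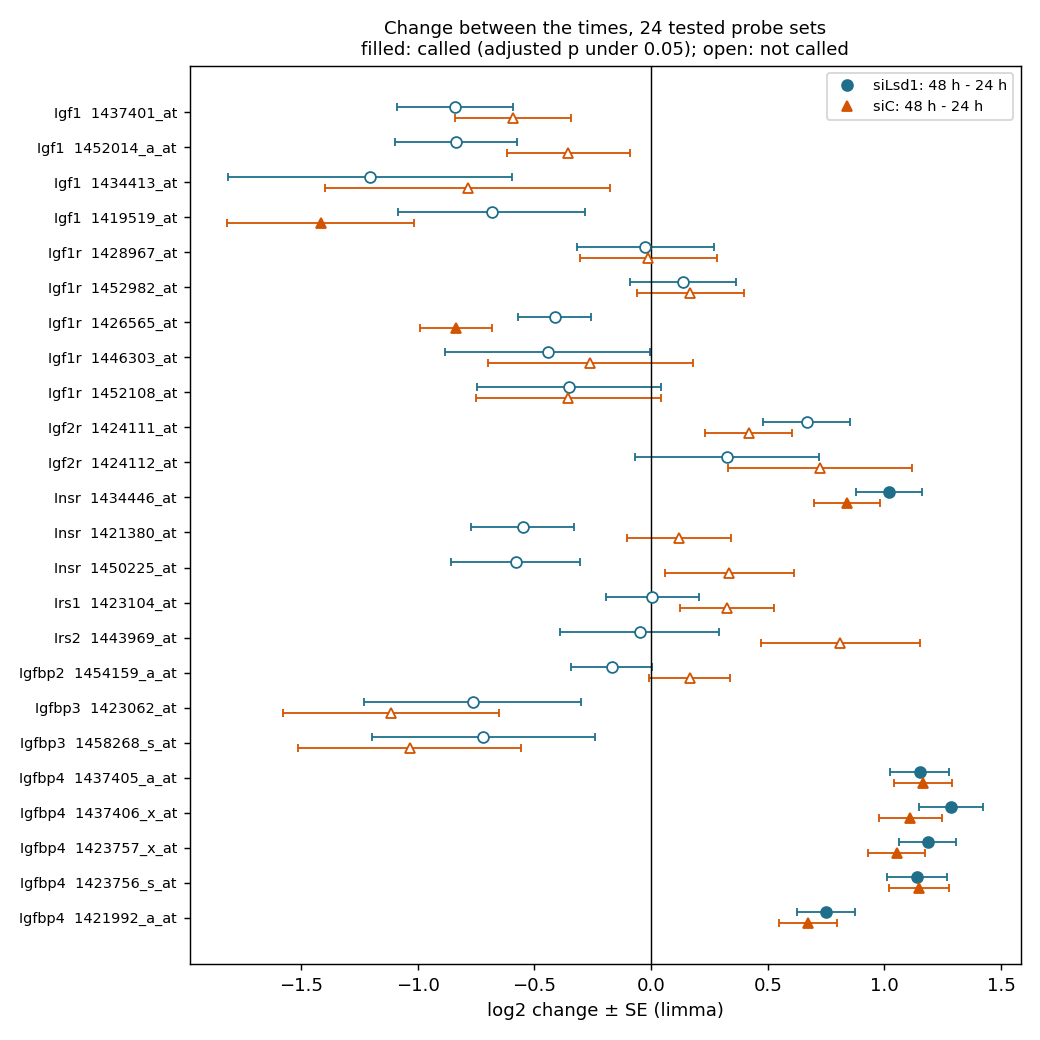
Log2 change at 48 h against 24 h with its SE from limma, in siLsd1 cells (circles) and siC cells (triangles), for the 24 tested probe sets, filled where the adjusted p was under 0.05. The 5 Igfbp4 probe sets and Insr 1434446_at are filled and above 0 under both siRNAs, and Igf1 and Igfbp3 lie below 0.

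The wider pathway was read through 58 other genes, of which 52 had a probe set of their own and 51 were tested, each by its brightest probe set. At 24 h limma called 0 of the 51, with 5 at an unadjusted p under 0.05 and a smallest adjusted p of 0.0634, against 1.52% of genes called higher and 1.34% lower. At 48 h, 4 were called higher and 2 lower in siLsd1 cells, against 4% and 3.68% of genes. The median change of the list was -0.06 at 24 h and -0.11 at 48 h, where the median of all genes was -0.02 and -0.01. Without siLsd1 48 h replicate 3 the calls were 1 higher and 7 lower at 24 h and 4 higher and 4 lower at 48 h. Of all probe sets, 5.47% and 8.51% were called at 24 h in that fit, and 4.44% and 5.01% at 48 h. These are shares of probe sets and not of genes, so they are not on the scale of the shares above. At 48 h, 2 genes (Trib3 and Sh2b1) were called without any one of the siC 48 h replicates, and 3 without siLsd1 24 h replicate 1 or 2. Over all probe sets, calls at 48 h numbered 262 to 458 in the first of these fits and 715 and 720 in the others, against 2013 with all arrays. Ins1 was not analysed here.

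Pappa, a protease that cuts Igfbp4 and frees IGF from it, was higher in siLsd1 cells at 48 h. It read 123, 118 and 185 units in siLsd1 cells, against 58.3, 69.8 and 71.2 in siC cells, a 2.10-fold difference (1.07 ± 0.19, limma adjusted p = 0.017) with no overlap. At 24 h it read 139 and 167 units in siLsd1 cells, against 121 and 158 in siC cells, which overlapped (0.14, adjusted p = 0.835). Without siLsd1 48 h replicate 3 the 48 h change was 0.87 ± 0.15 (limma, adjusted p = 0.0068), and the call was lost on leaving out any one siC 48 h replicate (adjusted p 0.0503 to 0.069). The siC cells themselves were lower in Pappa at 48 h than at 24 h (2.08-fold, limma adjusted p = 0.00793).

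Trib3, a pseudokinase that can bind AKT, read 2848, 2748 and 3673 units in siLsd1 cells at 48 h, against 1723, 1708 and 1799 in siC cells (0.81 ± 0.10, limma adjusted p = 0.0028). At 24 h it read 4131 and 3927 units in siLsd1 cells, against 3643 and 3803 in siC cells (0.11, adjusted p = 0.713). The 2 times were not called different (interaction adjusted p = 0.742), but were without siLsd1 48 h replicate 3 (0.57 ± 0.07, adjusted p = 0.0232). Eif4ebp1, a translation repressor that mTOR phosphorylates, was higher at 48 h (0.50 ± 0.10, limma adjusted p = 0.0239), as was Socs1, a suppressor of cytokine and insulin receptor signalling (0.80 ± 0.20, adjusted p = 0.0475). Socs1 read 191, 219 and 188 units in siLsd1 cells, against 144, 108 and 95.4 in siC cells. The Trib3 call held without any one array (adjusted p at most 0.0224). That of Eif4ebp1 was lost, at adjusted p of 0.0518 to 0.0862, without any one of the siLsd1 24 h or siC 48 h replicates. That of Socs1 was lost, at adjusted p of 0.0607 to 0.149, without any one of those or of siLsd1 48 h replicates 1 and 2.

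The 2 called lower encode adaptors. Sh2b1, which enhances insulin receptor signalling, read 484, 498 and 483 units in siLsd1 cells at 48 h, against 766, 726 and 759 in siC cells (-0.62 ± 0.08, limma adjusted p = 0.00528). Replicate 3 lay with the other two here, and the change without it was -0.61 (adjusted p = 0.000945). Cbl, a ubiquitin ligase that acts on receptor tyrosine kinases, read 388, 338 and 313 units in siLsd1 cells, against 424, 479 and 497 in siC cells (-0.43 ± 0.11, limma adjusted p = 0.0483). The Sh2b1 call held without any one array (adjusted p at most 0.0337), and the Cbl call held only without siLsd1 48 h replicate 1 or 3, with adjusted p of 0.079 to 0.159 in the other 8 fits. The ligand Igf2 differed by 0.13 ± 0.26 at 24 h and 0.23 ± 0.21 at 48 h and was not called (limma, adjusted p = 0.869 and 0.543), nor was Ins2 (-0.49 and 0.75) or Slc2a4, the insulin-responsive glucose transporter (0.31 and -0.12).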

How the data were processed

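Biotin-labelled cRNA of each sample was hybridised to its own Affymetrix array, per the labels' protocols. The authors deposited a linear intensity for every probe set on all 10 arrays. No source used here gives their summarisation, normalization or genome build. The lowest intensity was 0.76, and log2 of each deposited intensity was taken with nothing added. Array medians were 35.6 to 40.6 units, and precision is limited by how few arrays there are. The table holds no detection calls.

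The platform annotation named the probe sets: 34945 had 1 symbol, 932 several and 9160 none. Entrez identifiers of 34741 were found in the RefSeq table, and 0 symbols changed. The 25% dimmest probe sets (11260) were left out. A mean for each of 4 groups was fitted to all 10 arrays by limma 3.58.1 under R 4.3.3 (lmFit, eBayes with an intensity trend, 6 residual degrees of freedom) and adjusted by Benjamini and Hochberg over 33777 probe sets within a comparison. The fit was also run on simulated data with known changes. There the noise was independent between probe sets and alike on all arrays, so that run does not speak to siLsd1 48 h replicate 3. Log2 changes are siLsd1 minus siC, or 48 h minus 24 h, and SDs are of linear intensities. Figures were drawn with matplotlib 3.10.9.

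Named were Kdm1a, all probe sets of the 10 genes, every pathway gene called for the siRNA at 24 h or 48 h, Igf2, Ins1, Ins2 and Slc2a4, and the 3 genes nearest to the member with the largest SD. The genes and lists were chosen with earlier results of these data known. Promoters came from a RefSeq table of GRCm38.p6, which held 9 of the 10 genes. Alternatives changed the dim limit, the scaling, the intensity trend, array weights, an added 16 units, the choice of probe set, the arrays fitted and the replicate number as a block, and left out each array in turn. Whether replicate numbers pair the samples was not settled, and the main fit used no pairing. The correlations of same-numbered deviations from the group means were -0.148 at 24 h and -0.164, 0.148 and 0.0307 at 48 h. With so few arrays in a group, deviations are tied to each other by the group mean, so these values cannot decide it.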

Additional observations from a re-analysis of the deposited data

How the results depend on the processing

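Calls among the IGF and insulin probe sets varied in number with the alternative chosen. At 24 h, 1 of 24 was called, and 2 with the dimmest 50% left out, 0 after quantile normalization, 2 with arrays centred on the median, 0 without the intensity trend, 8 with array weights, 0 among brightest probe sets and 12 from the 24 h arrays alone. Leaving out 1 array gave 0 to 11. At 48 h, 6 were called, and 0 without the trend, 2 among brightest probe sets and 0 from the 48 h arrays alone, with 0 to 5 when 1 array was left out. For the mean of both times, 8 were called, and 14 with array weights and 4 among the 9 brightest probe sets, with 5 to 13 when 1 array was left out. Between the times, siC cells gave 8, and 14 with array weights, 2 among brightest probe sets and 6 to 16 with 1 array left out. In siLsd1 cells there were 6, and 16 with array weights and 5 to 15 with 1 array left out. Pathway genes called at 24 h were 0, and 1 with the dimmest 50% left out, 1 after centring, 6 with array weights, 8 from the 24 h arrays alone, 2 with 1 probe set per gene and 0 to 8 with 1 array left out. At 48 h they were 6, and 13 with array weights, 2 from the 48 h arrays alone, 2 without the trend and 2 to 8 with 1 array left out. Igf1r 1428967_at in siLsd1 cells, 48 h against 24 h, reversed: -0.02 with all arrays, -0.24 to 0.36 with 1 left out, the highest being without siLsd1 48 h replicate 3. The cause of these differences was not tested. Calls over all probe sets moved with these settings. At 24 h there were 681, and 943 with the dimmest 50% left out, 712 after quantile normalization, 778 after centring, 101 without the trend, 4396 with array weights, 3837 from the 24 h arrays alone and 8 to 4721 with 1 array left out. At 48 h there were 2013, and 434 without the trend, 5814 with array weights, 152 from the 48 h arrays alone and 262 to 3193 with 1 array left out. The highest leave-one-out count at each time was without siLsd1 48 h replicate 3. With 1 probe set per gene, 745 and 1745 genes were called at 24 h and 48 h. For the mean of both times there were 4434, and 8253 with array weights. Between the times there were 3037 in siLsd1 and 6428 in siC cells, and 11298 and 10571 with array weights.

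With the replicate number as a block, 0 of 24 were called at 24 h and 1 at 48 h, 1 higher and 6 lower for the mean of both times and 0 for the difference between the times, with 0 and 4 pathway genes at 24 h and 48 h. The comparisons between the times cannot be made with that block. Crossing the 24 h numbers, chosen after seeing the data, gave 0 of 24 and 40 of all probe sets, against 43 with the numbers as labelled. Centring arrays on the median moved the median change of all probe sets between the times in siC cells to -0.12, from 0.02, and the share of calls that were higher to 35.5%, from 54.7%. In siLsd1 cells that share was 41.3%, against 53.5%, and for the siRNA at 24 h it was 42.9%, against 53.3%. It rose for the siRNA at 48 h, to 59.5% from 51.6%, and for the mean of both times, to 46.0% from 43.5%. Under all alternatives fitted, Igf1 1437401_at and 4 Igfbp4 probe sets stayed called for both times together, as did Insr 1434446_at and these Igfbp4 probe sets between the times.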
